A study of Mus musculus with 2 samples.

Results

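DNA methylation at CpG sites was examined in 3 genes of the glucocorticoid stress axis: Nr3c1, Fkbp5 and Crhr1. The members were all CpG cytosines read at least 10 times in both libraries inside fixed spans of the mouse build mm9, which cover each gene and its flanks. These were chromosome 18, 39565000 to 39660000 for Nr3c1, chromosome 17, 28530000 to 28630000 for Fkbp5 and chromosome 11, 103988000 to 104042000 for Crhr1. The rule kept 392 of the 2312276 cytosines analysed in the series: 95 of 515 listed in Nr3c1, 132 of 601 in Fkbp5 and 165 of 505 in Crhr1. All but 2, both in Fkbp5, lay on the reverse strand. The rule used position and depth and no methylation value.

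The series asked whether arsenic exposure during development alters methylation in the hippocampus, a brain region for memory that is rich in glucocorticoid receptors. It holds 2 libraries from C57BL/6 mice, 1 from an untreated control and 1 from offspring given 5000 ppb arsenic trioxide (ATO) in drinking water, named the exposed library. Dams drank it from before mating until lactation, and the offspring went on drinking it after weaning. The labels name neither age nor sex, nor the number of animals behind each library. With 1 library per group there is no replicate check. Every test below compares these 2 libraries and is no test of the exposure. The tables hold no expression values, so neither the tissue label nor the activity of the genes could be checked. The listed cytosines carried 135987272 calls in the control and 147924810 in the exposed library. All analysed cytosines averaged 38.0% for the control and 36.7% for the exposed library, a difference of -1.28 points, which is the backdrop for each gene.

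In the stress axis, corticotropin-releasing hormone acts through the receptor encoded by Crhr1, and, by way of the pituitary, the adrenal gland answers with glucocorticoids. Nr3c1 encodes the glucocorticoid receptor, a nuclear receptor that binds DNA in the presence of the hormone and closes the negative feedback on the axis. Fkbp5 encodes FKBP51, a co-chaperone that lowers the affinity of that receptor for hormone. Its transcription is itself induced by the receptor through response elements in its introns. Methylated CpGs are usual in gene bodies, while CpG-dense promoters (CpG islands) are usually unmethylated.

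The promoters are shown first because they were the unmethylated parts against which the rest of each gene was read. The 250 bases before the start of Fkbp5 and of Crhr1 (RefSeq, table build GRCm38.p6, gene strand, 5′ to 3′) follow, with capitals for the CG sites whose cytosine was analysed in both libraries.
Fkbp5: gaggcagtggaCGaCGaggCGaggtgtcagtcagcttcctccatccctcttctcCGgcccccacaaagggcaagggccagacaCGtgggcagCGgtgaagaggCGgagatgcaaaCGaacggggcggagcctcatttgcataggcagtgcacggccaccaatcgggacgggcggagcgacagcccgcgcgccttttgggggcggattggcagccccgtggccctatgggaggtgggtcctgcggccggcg
Crhr1: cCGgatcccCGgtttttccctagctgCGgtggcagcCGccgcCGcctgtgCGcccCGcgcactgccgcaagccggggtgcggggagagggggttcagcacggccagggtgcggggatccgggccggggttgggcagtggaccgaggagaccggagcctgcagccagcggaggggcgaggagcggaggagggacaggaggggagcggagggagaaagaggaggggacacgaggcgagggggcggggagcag
The spacing of the CG sites placed both sequences on the files' own mm9 positions. All 32 CG sites of the full Fkbp5 entry and 29 of 31 of Crhr1 matched listed cytosines at a single place on the chromosome. That put the Fkbp5 start at chromosome 17, 28623094, with the printed bases at 28623095 to 28623344 on the reverse strand. The Crhr1 start fell at chromosome 11, 103994095, with the printed bases at 103993845 to 103994094 on the forward strand. Nr3c1 had no entry in the promoter table.

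Analysed sites lay in the part of each printed promoter that is farther from the start. In Fkbp5, 8 of 23 CG sites were analysed, at positions -239 to -135 relative to the start. The levels were 0 to 5.88% in the control and 0 to 8.33% in the exposed library, at 10 to 42 and 14 to 64 reads. In Crhr1, 7 of 25 were analysed at 10 to 18 reads. In the control 6 of these 7 were at 0% and 1 at 20%. In the exposed library 5 were at 0%, and the others had 12.5% and 16.7%. Over all listed cytosines of the printed bases, shallow ones included, 0.803% of 249 calls were methylated in the control Fkbp5 promoter (exact 95% interval 0.0974 to 2.87) and 2.27% of 353 in the exposed library (0.983 to 4.42). For Crhr1 the values were 1.25% of 160 calls (0.152 to 4.44) and 2.07% of 193 (0.568 to 5.22). Intervals of this kind cover counting error only, and whether duplicate reads were removed is not given in the sources used here. The intervals of the libraries overlapped in both promoters, so a difference was not detectable at this depth. The GC box GGGCGG, searched on both strands, occurred 3 times in the Fkbp5 bases and 1 time in the Crhr1 bases, against at least 1 match in 32.7% of all promoters of the table. TGTTCT, an arm of the glucocorticoid response element, matched neither on either strand and occurred in 16.1% of all promoters.

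Each span was then split by the density of analysed CpG cytosines, with no use of methylation levels. This density depends on read depth as well as on the sequence. The promoter island was the run of 500-bp bins, each with at least 15 analysed cytosines, at the gene's start (for Nr3c1, nearest to the 5′ end of the span), and dense bins with at most 1 bin between them were joined. The Crhr1 island was joined in this way across the bin that holds the start, where no cytosine was analysed between 103993901 and 103994634. No Fkbp5 bin reached 15, so a minimum of 10 was used there. Shores were the 2000 bp on each side, and "gene side" was all of the span beyond the shore in the direction of transcription. Exon and intron positions on mm9 were not used here.

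The islands of all 3 genes were nearly unmethylated in both libraries. At the Nr3c1 island (39651001 to 39651500) the 22 cytosines averaged 2.32% in the control and 2.37% in the exposed library, a difference of 0.05 points with an SD between cytosines of 5.14. At the Fkbp5 island (28623001 to 28623500, 13 cytosines) the means were 3.88% and 4.40%, a difference of 0.53 points (SD 3.89). The Crhr1 island was the longest and best sampled, with 110 cytosines from 103993001 to 103995500. Its means were 2.99% and 2.93%, a difference of -0.06 points (SD 5.02). Of its cytosines 33 were higher in the exposed library, 35 lower and 42 equal. No island held a called cytosine, that is, a cytosine with an adjusted p under 0.05 (two-sided Fisher's exact test, Benjamini-Hochberg over all cytosines) and a difference of at least 25 points. In each island the difference was smaller than the spread between its cytosines.

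Promoters of the wider axis were read in the same way, Fkbp5 and Crhr1 among them. Of a list of 29 genes, 19 had promoter entries and 11 could be placed, and 8 promoters of 7 genes had at least 5 analysed cytosines. These were Fkbp5, Crhr1, Fkbp4 (a co-chaperone related to FKBP51), the glucocorticoid-induced kinase Sgk1, the phosphatase Dusp1, the transcription factor Klf9 and a pair of promoters of the clock gene Per1. All 8 were below 10% in both libraries, with a median of 2.09% in the control and 1.77% in the exposed library. Among all 8084 promoters placed in this way 97.5% were below 10%, and the medians were 1.90% and 1.91%. The 8 differences ran from -2.13 points at Fkbp4 to 2.73 points at Sgk1, with 3 higher, 5 lower and none with a called cytosine. Over all placed promoters the median difference was 0, 49.8% were higher in the exposed library and 0.606% held a called cytosine.

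**Figure D1:**
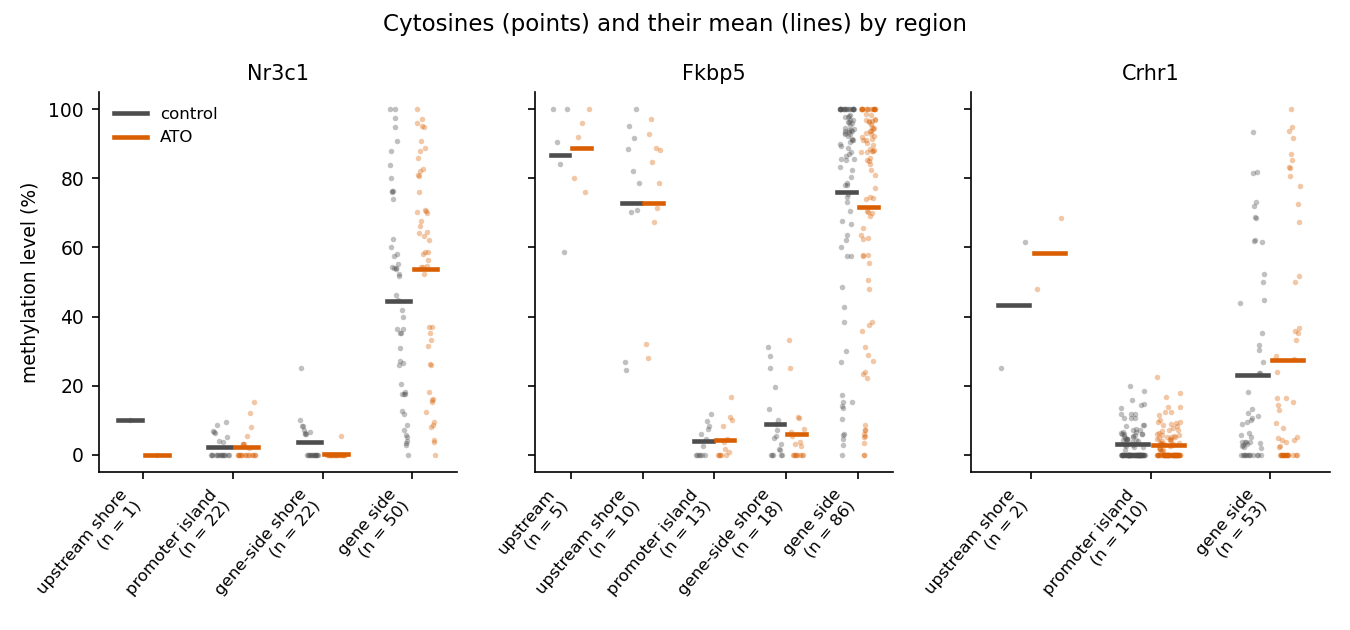
Methylation level (vertical axis, %) of each analysed cytosine (points) and the mean over cytosines (lines) by region, for the control (grey) and ATO (orange) libraries. The promoter islands average 2.32 to 4.40% in both libraries, and the gene sides hold cytosines from near 0% to 100%.

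Outside the islands the analysed cytosines of the genes differed in level. The gene side of Fkbp5 was highly methylated, with a mean of 76.2% in the control over 86 cytosines. That of Nr3c1 averaged 44.6% over 50 cytosines, and that of Crhr1 23.2% over 53. These means depend on which stretches were analysed and are not levels of the whole gene body. The Crhr1 cytosines lay in stretches of 28, 9 and 16, with control means of 6.06%, 73.7% and 24.8%. The shores differed too. In Fkbp5 the upstream shore was methylated (72.9% in the control and 73.0% in the exposed library, 10 cytosines). The gene-side shore of Fkbp5 was low, with 8.88% and 6.06% over 18 cytosines, a difference of -2.82 points (SD 9.06). The upstream flank of Fkbp5 beyond the shore had 86.7% and 88.8% over 5 cytosines. Crhr1 had no analysed cytosine in its gene-side shore, and only 2 in its upstream shore. At 103992947, reads were 25% methylated in the control and 48.1% in the exposed library, and at 103992957 they were 61.5% and 68.5%. Nr3c1 had 1 cytosine in its upstream shore, with 10% of 10 reads and 0 of 21 reads methylated. A count of 0 in 21 allows up to 16.1% (exact 95% upper bound).

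The gene-side shore of Nr3c1 averaged 3.80% in the control and 0.25% in the exposed library over 22 cytosines. Of the 9 cytosines that were lower there, 8 lay in a single group at 39649203 to 39649295. There the control had 5.88 to 25% and the exposed library 0% at all 8. The depth was only 10 to 17 and 10 to 12 reads, and neighbours this close share reads. After division by the number of sites a fragment spans, 1 of 14 reads in the control and 0 of 11 in the exposed library was methylated, with exact intervals of 0.181 to 33.9% and 0 to 28.5%. The difference was therefore not detectable at this depth, although its size of -9.09 points lay below nearly all autosomal bins of the same level (0.0028 percentile). Those bins were not matched on depth, and a mean level under 5% limits how large a difference can be. With a shore of 1000 bp, which leaves this group out, the shore difference was -0.08 points.

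**Figure D2:**
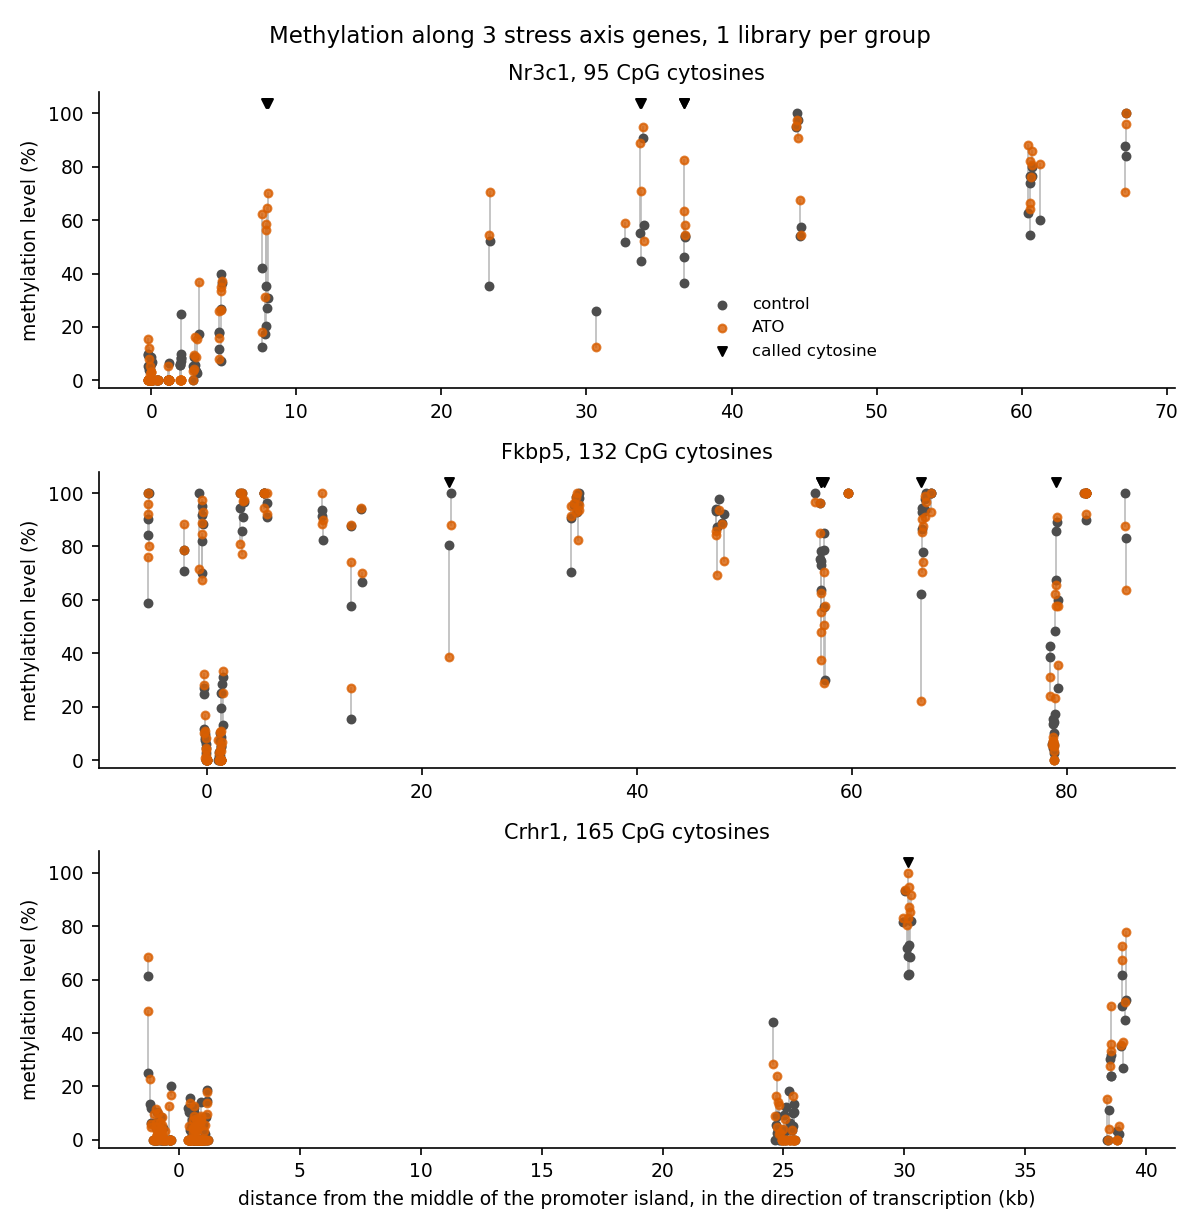
Methylation level (vertical axis, %) of every analysed cytosine against its distance from the middle of the promoter island in the direction of transcription (horizontal axis, kb), for the control (grey) and ATO (orange) libraries. Grey lines join the levels of a cytosine, and triangles mark the 14 called cytosines, which all lie on the gene side.

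Partly methylated cytosines held 13 of the 14 calls, as they held 56734 of the 61222 calls of the whole series. The direction of their differences was not the same in each gene in these libraries. Among cytosines with a mean level of 20 to 80% over both libraries, Nr3c1 averaged 46.5% in the control and 60.1% in the exposed library, a difference of 13.7 points (SD 15.1, n = 32 cytosines). Fkbp5 was lower, with 59.7% and 52.5%, a difference of -7.23 points (SD 18, n = 32 cytosines). Crhr1 had 45.6% and 57.0%, a difference of 11.4 points (SD 11.3, n = 17 cytosines). Over all 604836 autosomal cytosines of that level the means were 54.9% and 51.2%, a difference of -3.77 points with an SD of 19.5. Over the whole series, sex chromosomes included, 9.25% of cytosines at that level were called, against 7 of 32, 6 of 32 and 0 of 17 in Nr3c1, Fkbp5 and Crhr1. The cytosines of a gene are not replicates, and neighbours share reads.

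The counts followed the means. In Nr3c1, 25 of the 32 partly methylated cytosines were higher in the exposed library and 7 lower. In Crhr1, 15 of 17 were higher and 2 lower. In Fkbp5, 13 were higher and 19 lower. Over the autosomes 41.0% of such cytosines were higher and 58.5% lower. Whether the genes differ from each other beyond the variation between animals was not tested, since no animal replicate exists.

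**Figure D3:**
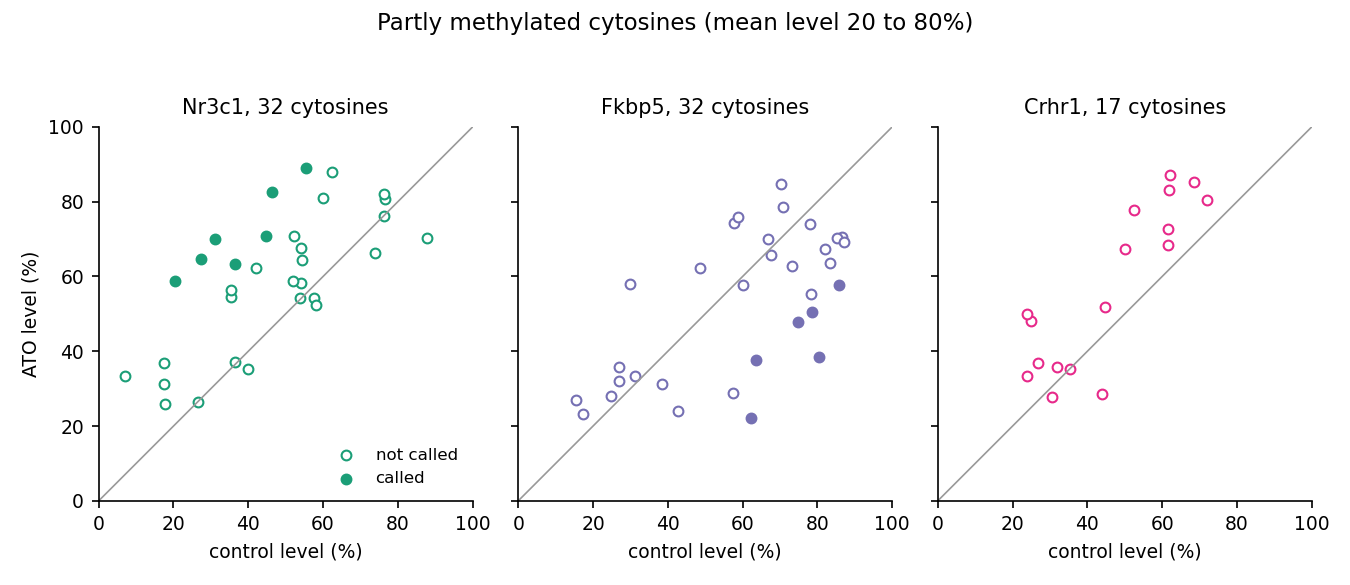
Level in the exposed library (vertical axis, %) against level in the control (horizontal axis, %) for cytosines with a mean level of 20 to 80%. Filled points are called cytosines, and the line marks equal levels. Of the points, 25 of 32 in Nr3c1 and 15 of 17 in Crhr1 lie above the line, against 13 of 32 in Fkbp5.

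In Nr3c1, the receptor gene, 7 cytosines were called and all 7 were higher in the exposed library. Over all analysed cytosines of the series 2.65% were called, 0.916% higher and 1.73% lower. Over the whole span the mean was 25.02% in the control and 28.98% in the exposed library, a difference of 3.97 points (SD 12.3, n = 95 cytosines). Requiring 20 or 30 reads gave 7.01 or 8.70 points, and the difference was 7.95 points with each call weighted alike. On the gene side the means were 44.6% and 53.9%, a difference of 9.27 points (SD 13.98). Of these 50 cytosines 34 were higher and 14 lower.

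The called cytosines of Nr3c1 fell into 3 places, named here by their distance along the gene from the middle of the island. The nearest group, 7.85 kb away at 39643200 to 39643611, held 7 cytosines that were all higher in the exposed library. Its mean was 26.6% in the control and 51.7% in the exposed library (difference 25.1 points, SD 13.3). The cytosine at 39643200 had 31.0% of 116 reads methylated in the control and 70.1% of 107 in the exposed library, with an adjusted p = 2.1e-06 by Fisher's exact test. At 39643308 the values were 20.5% of 88 and 58.7% of 92 reads (adjusted p = 3.4e-05, Fisher's exact test). The third called site of the group, 39643293, had 27.3% and 64.6%. The cytosines at 39643337, 39643428, 39643599 and 39643611 were not called, and had 35.4%, 17.5%, 42.0% and 12.6% in the control against 56.5%, 31.4%, 62.3% and 18.1% in the exposed library. All 7 sites thus differed in the same direction, by 5.50 to 39.1 points.

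Farther along Nr3c1, at 33.8 kb, the cytosines at 39617516 and 39617593 were deeply read and called. The first had 44.8% of 154 and 70.8% of 147 reads methylated, and the second 55.4% of 168 and 88.9% of 162 (adjusted p = 6.3e-09, Fisher's exact test). Their neighbours at 39617313 and 39617345, read 21 to 43 times, had 58.1% and 90.7% in the control against 52.4% and 94.7% in the exposed library. At 36.8 kb, the sites 39614517 and 39614543 were called, with 46.3% and 36.4% in the control against 82.7% and 63.4% in the exposed library. Beside them 39614438 and 39614452, read 13 to 43 times, had 53.85% and 54.17% in the control against 54.29% and 58.14% in the exposed library. A pair of uncalled sites at 23.3 kb, 39627925 and 39627992, had 52.3% and 35.3% in the control, against 70.7% and 54.6% in the exposed library.

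Elsewhere in Nr3c1 no cytosine was called, and differences went both ways. Some shallow sites had gains as large as called ones. They included 39646475 (26.2 points, 14 and 27 reads), 39590819 (25.5 points, 16 and 25 reads) and 39589955 (21.0 points, 10 and 21 reads). The site 39584100 differed by -17.5 points, at 33 and 27 reads. The 7 cytosines at 39590532 to 39590819 averaged 71.4% and 77.6%, a difference of 6.22 points (SD 10.2), with 5 higher and 2 lower. The 5 cytosines at 39606460 to 39606773 averaged 80.8% and 81.1%. The single cytosine at 39620586 was lower in the exposed library, with 26.0% of 73 and 12.4% of 81 reads. Of 15 groups of cytosines in the span, separated by more than 300 bp, 10 were higher in the exposed library and 5 lower.

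In Fkbp5, the co-chaperone gene, 6 of 132 cytosines were called and all 6 were lower in the exposed library. That is 4.55%, against 2.65% called over the series, of which 1.73% lower. The span averaged 60.02% in the control and 56.9% in the exposed library, a difference of -3.10 points (SD 11.2, n = 132 cytosines). On the gene side the means were 76.2% and 71.8%, a difference of -4.39 points (SD 11.9), and -7.73 points with each call weighted alike. There 25 cytosines were higher and 48 lower. The largest single loss of the 3 genes was at 28600700, in a pair of sites 22.5 kb from the start on average, with 80.4% of 51 reads methylated in the control and 38.5% of 65 in the exposed library (adjusted p = 5.8e-04, Fisher's exact test). Its neighbour at 28600568 had 100% of 18 and 88.0% of 25 reads. The loss at 28556875, in a group 66.5 kb from the start, was of like size, with 62.2% of 74 and 22.2% of 90 reads (adjusted p = 4.5e-05, Fisher's exact test). It stood at the edge of a group of 9 cytosines of which the other 8 were at 78.1 to 100% in the control and 70.5 to 98.7% in the exposed library.

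A broader stretch of lower values in Fkbp5 lay 57.1 kb from the start, at 28565773 to 28566259. Its 10 cytosines averaged 71.3% in the control and 59.2% in the exposed library (difference -12.0 points, SD 19.1), and 3 of them were called. These were 28565875 (78.6% and 50.5%), 28566127 (63.5% and 37.7%) and 28566138 (74.7% and 47.9%). In the same stretch 28566259 had 96.4% in both libraries, and 28566215 had 75.3% and 84.9%. The first site, 28565773, had 30% of only 10 reads and 57.9% of 19. At 47.5 kb, the 6 cytosines at 28575188 to 28575921 were all lower, with means of 92.2% and 82.7%, and none was called.

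A dip in methylation lay far along Fkbp5, 78.7 kb from the start. Its 18 cytosines at 28544050 to 28544855 ranged from 0 to 89.3% in the control and from 0 to 91.2% in the exposed library. Low values from 28544429 to 28544621 were shared by both libraries. The mean of all 18 cytosines was 30.5% in the control and 27.3% in the exposed library, a difference of -3.15 points (SD 9.80). In this dip 1 cytosine was called, 28544263, with 85.7% of 84 and 57.8% of 116 reads. Highly methylated groups at 34.1 and 5.26 kb had 93.2% and 97.5% in the control against 94.0% and 97.4% in the exposed library. A group at 13.3 kb was higher at all 3 of its sites, with means of 53.5% and 63.1%.

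In Crhr1, the receptor for the releasing hormone, 1 of 165 cytosines was called, and it was higher in the exposed library. That is 0.606%, against 2.65% called over the series, of which 0.916% higher. The span averaged 9.97% in the control and 11.5% in the exposed library, a difference of 1.53 points (SD 7.98, n = 165 cytosines), a low mean because 135 of the cytosines were below 10%. On the gene side the means were 23.2% and 27.5%, a difference of 4.33 points (SD 11.2), with 32 cytosines higher and 14 lower. The called cytosine, 104024408, had 68.9% of 106 reads methylated in the control and 100% of 95 in the exposed library (adjusted p = 5.1e-08, Fisher's exact test). It lay in a methylated group of 9 cytosines, 30.3 kb from the start at 104024215 to 104024522, which were all higher in the exposed library. The group averaged 73.7% and 88.8% (difference 15.1 points, SD 10.6). At the end nearer the start, the sites 104024215 and 104024286 were close in the libraries. They had 81.5% and 93.3% in the control against 83.2% and 93.6% in the exposed library. At the other end, 104024500 and 104024522 had 68.4% and 81.8% in the control against 85.2% and 91.7% in the exposed library. From 104024396 to 104024431 the 4 sites had 61.9 to 73.0% in the control and 83.0 to 100% in the exposed library.

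Crhr1 also held an unmethylated stretch away from its promoter, 25.2 kb from the start at 104018820 to 104019730. Its 28 cytosines averaged 6.06% in the control and 5.25% in the exposed library. The difference was -0.81 points (SD 9.05), with 12 cytosines higher and 11 lower. The direction turned when calls were pooled, with 4.55% of 1429 calls in the control (exact interval 3.53 to 5.76) and 7.25% of 1642 in the exposed library (6.04 to 8.61). These intervals count each call as independent, although neighbouring sites share reads. A stretch of mixed level at 38.9 kb, 104032655 to 104033412, averaged 24.8% and 32.1% over 16 cytosines (difference 7.24 points, SD 9.93), with 11 higher, 3 lower and none called.

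Calls varied with depth and with how reads were counted. Among autosomal cytosines at 20 to 80%, 4.42% were called where the shallower library had 10 to 29 reads, 10.1% at 30 to 59, 13.9% at 60 to 99, 11.8% from 100 to under 200 and 4.72% at 200 or more. In the class of 60 to 99 reads Nr3c1 had 4 called, all higher, of 10, and Fkbp5 had 5 called, all lower, of 11. The autosomal shares in the class were 4.70% called higher and 9.16% called lower. From 100 to under 200 reads Nr3c1 had 3 called, all higher, of 6, against an autosomal 4.66% called higher, while none of 3 in Fkbp5 and none of 6 in Crhr1 was called. In the class of 10 to 29 reads none of the 11, 8 and 7 cytosines of Nr3c1, Fkbp5 and Crhr1 was called. The variance between both strands of a CpG within a library was 2.77 times that of sampling alone, as a mean of both libraries. It was measured only on CpGs at 20 to 80% with at least 10 reads on both strands in both libraries. All but 2 members lay on the reverse strand, so the factor comes from other CpGs. With counts scaled down by this factor, none of the 14 calls was kept, and the whole series kept 1908 of 2312276.

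The bins of the 3 genes were set against autosomal bins of the same level. In all, 28 bins of 500 bp had at least 5 analysed cytosines, and 22 of them lay between the 5th and the 95th percentile of their level class. By definition 5% of a class lies beyond each end of that range. By gene, 3 of 6 bins in Nr3c1, 11 of 12 in Fkbp5 and 8 of 10 in Crhr1 lay within it. The median difference of the 28 bins was 0.18 points, against -0.54 points over 149516 autosomal bins of all levels. Against the median of their own level class 17 bins were above and 11 below, with a median excess of 0.26 points. For bins the rule was an adjusted p under 0.05 (Fisher's exact test on divided sums) and at least 20 points, and 1.80% of all 152175 bins met it, 0.638% higher and 1.16% lower.

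The only called bin was Nr3c1 39643001 to 39643500, which holds 5 sites of the group at 7.85 kb. It had 27.3% in the control (exact 95% interval 18.6 to 37.8) and 59.2% in the exposed library (48.2 to 69.8), with mean coverages of 90.8 and 86.2 reads and an adjusted p = 0.0029 by Fisher's exact test. Its difference of 31.9 points was at the 98.6 percentile of the 17709 autosomal bins at 40 to 60%, whose median was -4.21 points. Of that class 2.43% were called higher. When the sums were scaled down by the factor of 2.77 as well, the call was lost (adjusted p = 1, Fisher's exact test). Beside this bin, Nr3c1 39648001 to 39648500, on the way from the island into the gene, had 4.54% and 10.5%, at the 96.5 percentile of its class.

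Of the 12 Fkbp5 bins, 11 lay between the 5th and the 95th percentile. The exception, 28588501 to 28589000, had 97.1% and 93.2% and lay at the 4.88 percentile of bins at 95 to 100%. The bin with the largest loss in points, 28556501 to 28557000, had 80.5% in the control (63.5 to 90.7) and 63.6% in the exposed library (48.1 to 75.9). The difference of -16.9 points was at the 11.7 percentile of bins at 60 to 80% and was not called (adjusted p = 0.93, Fisher's exact test). The largest gain in points, at 28623501 to 28624000 in the upstream shore, was from 52.9% to 57.2%, at the 74.6 percentile. This gain was in pooled calls, and the mean over its 8 cytosines was 72.4% in the control and 70.4% in the exposed library. By percentile 28617501 to 28618000 was highest (82.2). Among the 12 bins 5 were above and 7 below the median of their class, with a median excess of -0.56 points. A loss at least as large as that of the bin at 28556501 was seen in 11.7% of autosomal bins of the same level.

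In Crhr1 the bin with the largest gain, 104024001 to 104024500, had 74.3% in the control (64.8 to 82.3) and 88.2% in the exposed library (80.4 to 94.1). Its difference of 13.9 points was at the 98.2 percentile of bins at 80 to 90% and was not called (adjusted p = 0.26, Fisher's exact test). The largest loss, at 104019501 to 104020000 in the unmethylated stretch, was from 5.16% to 2.76%, at the 3.45 percentile and at mean coverages of 21.6 and 40.3 reads. Its direction turned to 0.38 points at a coverage minimum of 20. The bins before it, 104018501 and 104019001, lay at the 93.2 and 93.7 percentile. In 104019001 pooled calls rose from 3.24% to 5.15%, while the mean over its 14 cytosines fell from 4.23% to 3.13%. The 4 bins of the promoter island lay between the 23.3 and the 79.8 percentile. Of 10 bins, 7 were above and 3 below the median of their class.

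**Figure D4:**
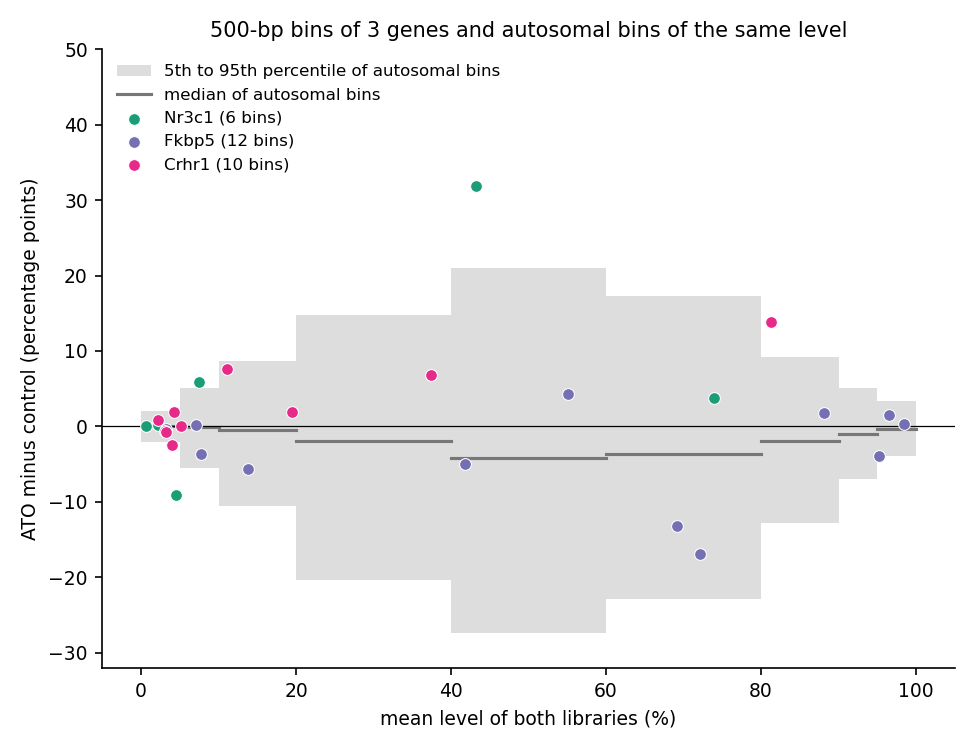
Difference between the libraries (vertical axis, ATO minus control in percentage points) against the mean level of both (horizontal axis, %) for the 28 bins of the 3 genes (coloured points), over the 5th to 95th percentile range (grey) and median (line) of autosomal bins in each level class. Of the 28 bins 22 lie inside the grey range. The Nr3c1 bins at 31.9 and 5.93 points and the Crhr1 bin at 13.9 points lie above it, and 1 bin of each gene lies below it, at -9.09 (Nr3c1), -3.93 (Fkbp5) and -2.40 points (Crhr1).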

How the data were processed

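Methylation was measured by bisulfite sequencing after target enrichment (SureSelect mouse Methyl-Seq), per the labels' protocols. The tools were Bismark 0.19.0, Bowtie2 and bcl2fastq, and the build mm9, per the submitters' processing notes. Duplicate removal is not given in the sources used here. Per the file headers, the deposited tables give for each CpG cytosine the coverage (a count of reads, not normalized) and the percent of them that called C or T. Multiplying both gave methylated counts, of which 100% were whole within the rounding of 0.005 points. The median coverage of analysed cytosines was 41 for the control and 44 for the exposed (ATO) library. A level is a percent, and differences subtract the control from the ATO level, in points. Bisulfite does not tell methylated from hydroxymethylated cytosine.

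For each cytosine a two-sided exact test of Fisher was run, with p-values adjusted by Benjamini-Hochberg over the whole table. Bins of 500 bp were compared on summed calls, scaled down by how many analysed sites 300 bp of the bin can hold at most. The Fisher routine and the callers were tested on simulated data, drawn as independent binomial counts for each cytosine. Shared reads and excess variance were not simulated, so that test cannot give the rate of false calls in these libraries. Level classes of bins (edges at 5, 10, 20, 40, 60, 80, 90 and 95%) used the mean of both libraries. RefSeq promoters (GRCm38.p6) with at least 10 CG sites were placed on mm9 where 80% or more of the sites, and under 60% at any other place of the chromosome, were listed. Of 32851 entries 9113 were placed, and for 98.7% of neighbouring pairs the distance was the same within 1000 bp in both builds. Intervals are exact binomial (Clopper-Pearson, 95%). Named bins were the called bins or, in a gene without any, those with the largest loss and gain. Named cytosines were up to 2 called ones in each direction per gene, by the size of the difference. Other sites were named after their values were seen. The members and gene lists were chosen with earlier results of these data known. Python 3.11.15, numpy 2.4.6, pandas 2.3.3 and scipy 1.17.1 were used.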

Additional observations from a re-analysis of the deposited data

How the results depend on the processing

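The split into regions, the coverage minimum, the weighting, the call thresholds and the bin settings were varied as planned; division by the dispersion between strands and bins with at least 2 cytosines were chosen after seeing the data. For Nr3c1 as a whole, coverage minimums of 20 and 30 gave mean differences of 7.01 and 8.70 points, and the mean was 7.95 points with each call weighted alike, against 3.97 points. The Nr3c1 gene side gave 12.2 points at a minimum of 30, 13.5 points with calls weighted alike and 6.67 points with shores of 1000 bp. Its gene-side shore gave -0.079 points with shores of 1000 bp and -1.02 points with shores of double the main width. The Fkbp5 gene side gave -6.41 points at a minimum of 30 and -7.73 points with calls weighted alike. Its gene-side shore gave 0.21 points with 1000 bp, and its upstream flank -9.24 points at a minimum of 20, where 2 cytosines were left. The median excess over autosomal bins of the same level was 6.53 points in Nr3c1 and -2.66 points in Fkbp5 at a minimum of 20, and 6.45 points in Nr3c1 with at least 2 cytosines per bin, against 3.07 and -0.56 points.

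At a difference of at least 15 points Crhr1 had 5 called cytosines of 165, all higher, where 3.64% of all cytosines of the series were called. Division by the dispersion left 0 called cytosines in each gene and 0 called bins in Nr3c1. There were also 0 called bins in Nr3c1 with 200-bp bins and with at least 10 cytosines per bin, where fewer sites enter a bin or the bin is not tested. Apart from the construction of these settings, the cause of the changes was not tested. No Fkbp5 island could be formed at 15 or 20 cytosines per bin. No paired analysis was possible because each group has a single library.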
